A study of Mus musculus with 11 samples.

Results

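The genes described here are the cadherins and protocadherins measured in mouse hippocampal tissue after a chemotherapy course. Members were taken by gene symbol (Cdh or Pcdh followed by a digit, or by a, b or g for the clustered protocadherins) with a mean count of at least 10 over the 11 libraries. The rule took 84 of the 17118 rows of the table: 20 cadherins, 53 clustered protocadherins and 11 non-clustered protocadherins. Cdh1, with a mean of 12.2 counts, lay just inside the minimum, and Pcdha1 with 8.63 and Cdh26 with 7.55 lay just outside it. The low-count filter of the test left 81 members, among 15353 genes, and Cdh1, Cdh3 and Cdh23 were not tested.

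In the AC-T group (5 libraries) mice received 4 weekly intraperitoneal doses of doxorubicin (2 mg/kg), an anthracycline, with cyclophosphamide (50 mg/kg), an alkylating agent, and then 4 weekly doses of paclitaxel (5 mg/kg), which stabilises microtubules. The saline group (6 libraries) received 8 weekly injections of 0.9% saline. All mice were female C57/BL6 aged 12 weeks at the start, samples carry a one-month label, and each library came from polyadenylated RNA of a punch from a frozen brain slice. The labels mention no tumour.

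Cadherins are calcium-dependent adhesion molecules whose extracellular repeats bind the same or a related cadherin on a neighbouring cell. Classical cadherins are tied to actin through catenins and hold together synapses, glial contacts and vessel walls. Clustered protocadherins come from alpha, beta and gamma gene arrays in which a single neuron switches on a few alternate first exons by promoter choice, giving each neuron a surface identity used in self-avoidance, while C-type isoforms are expressed more broadly. Non-clustered protocadherins of the delta groups are single genes that shape axon paths and synapse number.

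Library totals were 28.3 to 31.7 M counts (M, mega) in AC-T libraries and 23.4 to 32.1 M in saline libraries. Marker levels of CA1 and of neighbouring regions differed between the groups, while the sums of the CA3 and CA2 list (exact permutation p = 0.532) and of the dentate granule list (exact permutation p = 0.108) overlapped. The summed level of the 19 thalamus and habenula markers was 765 to 1121 CPM (counts scaled to a common library size) in AC-T libraries, against 1461 to 2218 CPM in saline libraries, and 15 of its 18 tested genes fell (exact permutation test of the sums, 2-sided, p = 0.00433, the smallest it can give, and 0.0216 adjusted over 15 library measures). The 8 CA1 markers summed to 807 to 992 CPM in AC-T libraries and 328 to 632 CPM in saline libraries, and 2 rose. The 9 neocortex markers summed to 305 to 331 CPM in AC-T libraries and 223 to 263 CPM in saline libraries, with 4 higher and 1 lower. The sums of both lists gave the same exact p of 0.00433. The marker lists were chosen with earlier results of these data known. The p-values of their sums therefore describe these libraries and are no independent test. Genes of these lists that rose or fell are edgeR calls, beside 8.47% of all genes called, 4.89% as higher. The sums of the interneuron, astrocyte, oligodendrocyte, microglia, meninges and choroid plexus lists overlapped between the groups. Among the 9 interneuron markers 3 were called higher and 2 lower, and among the 8 astrocyte markers 1 was called lower. Of the 8 CA3 and CA2 markers 1 was called lower, Pcp4. The 6 hippocampal defining genes summed to 4155 to 5191 CPM in AC-T libraries and 2892 to 4988 CPM in saline libraries, and none was at 0. Of these 6, 1 was called higher, Neurod6. The first digit of the mouse number splits each treatment into series 5 and 6 (AC-T) and 2 and 3 (saline). Its meaning is not stated in the labels, and as no series holds both treatments, series and treatment cannot be told apart. Saline 300 stood apart: 10 members were listed at 0 there, against 2 to 6 in each other library, and Xist, which every other library held at 13057 counts or more, was listed at 0 although all mice were female. Over the whole table saline 300 had no excess of zeros, with 1461 rows at 0 against 1444 to 1888 in the other libraries. Results that rest on saline 300 are given with and without it.

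The level of each gene was set on a per-length scale, as the mean CPM over the 11 libraries per kilobase of the longest annotated transcript. Pcdh1, a delta-1 protocadherin, was the highest at 39.3 CPM per kilobase. It was followed by the row labelled Pcdhga8 that GENCODE names Pcdhgc4 (27.5), by Pcdhgc3 (24.1), by Pcdh9 (21.7) and by Cdh2 (21.6). C-type isoforms, 5 of the 53 clustered genes, took 46.5 ± 2.0% of the summed clustered CPM in AC-T libraries (SD, n = 5) and 47.9 ± 1.78% in saline libraries (SD, n = 6), and the ranges overlapped. Alternate isoforms were low: the highest among them was Pcdhga11 at 6.41 CPM per kilobase. Alpha and gamma isoforms share their constant exons with the other members of their array, so a read there was divided among them by estimation, and their single values are uncertain. Beta genes have no shared exon but resemble each other in sequence.

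**Figure D1:**
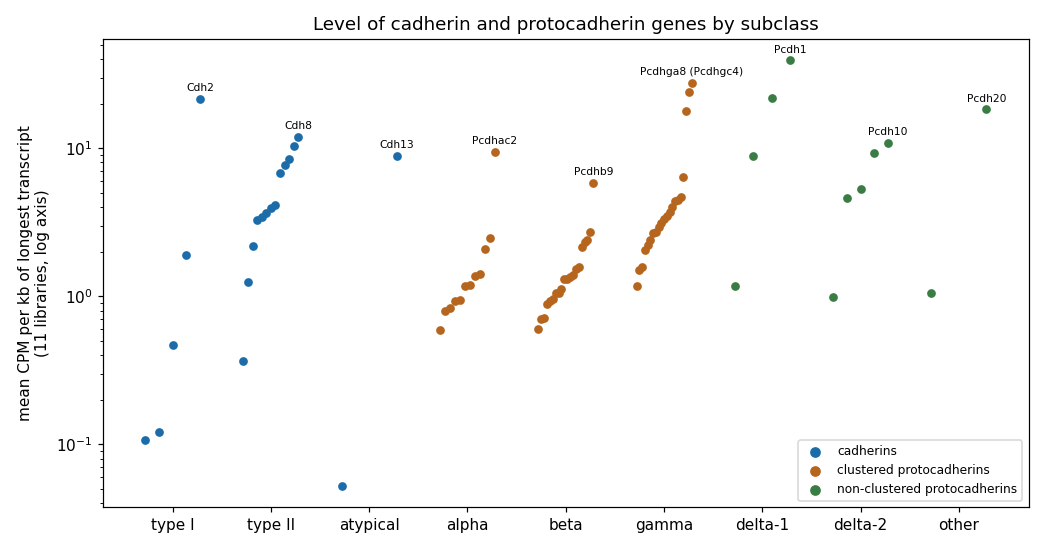
Mean CPM per kilobase of the longest transcript over the 11 libraries (vertical log axis) for each of the 84 members, by subclass, with the highest of each subclass named. Pcdh1 stands at 39.3, Pcdhga8 (Pcdhgc4) at 27.5 and Cdh2 at 21.6, and most alpha and beta genes lie below 3.

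Of the 81 tested members, 1 passed the threshold between AC-T and saline, the beta gene Pcdhb5, which rose (1.23%, against 8.47% of all 15353 genes, 4.89% among the higher; edgeR quasi-likelihood test, Benjamini-Hochberg adjusted p under 0.05). The share of members called was smaller than that of the table as a whole. By unadjusted p under 0.05, 22 members stood out (27.2%, against 24.9% of all genes). They were 19 higher and 3 lower, while 14.0% of all genes were higher and 10.9% lower at that level. Over the tested members 60 of 81 log2 fold changes were above 0 (74.1%, against 49.4% of all genes). In the clustered protocadherins this was 44 of 53 (83.0%), with 12 of 12 alpha, 17 of 20 beta and 15 of 21 gamma genes, and in the cadherins 9 of 17. Without the 8 clustered genes listed at 0 in some library, 7 of them in saline 300, it was 36 of 45 clustered genes, with 8 of 8 alpha, 13 of 16 beta and 15 of 21 gamma genes, and a clustered median log2 fold change of 0.14. The median log2 fold change was 0.16 for clustered protocadherins, 0.09 for non-clustered protocadherins and 0.00 for cadherins, beside 0.00 for all genes tested. The median of the clustered protocadherins lay between 0.08 and 0.20 in all 28 alternative settings, scalings included. That of the cadherins ran from -0.07 to 0.12 over the same settings. With a score of the thalamic markers in the fit, the order of the 2 classes was the other way, at 0.08 for clustered protocadherins and 0.12 for cadherins. The array medians in that fit were 0.39 for alpha, 0.07 for beta and -0.05 for gamma. Its median SE was 0.27 for clustered protocadherins and 0.31 for cadherins, against 0.12 and 0.14 in the main fit. For alpha, beta and gamma it was 0.38, 0.27 and 0.25, so no difference is read from these orders. Clustered genes lie in 1 locus, share exons and share libraries, so these counts are not independent observations. The measurement of the family was also less precise than that of a typical gene, with a median SE of the log2 fold change of 0.12, against 0.08 over all genes. In bulk tissue, more RNA per cell and more cells of an expressing type cannot be told apart.

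**Figure D2:**
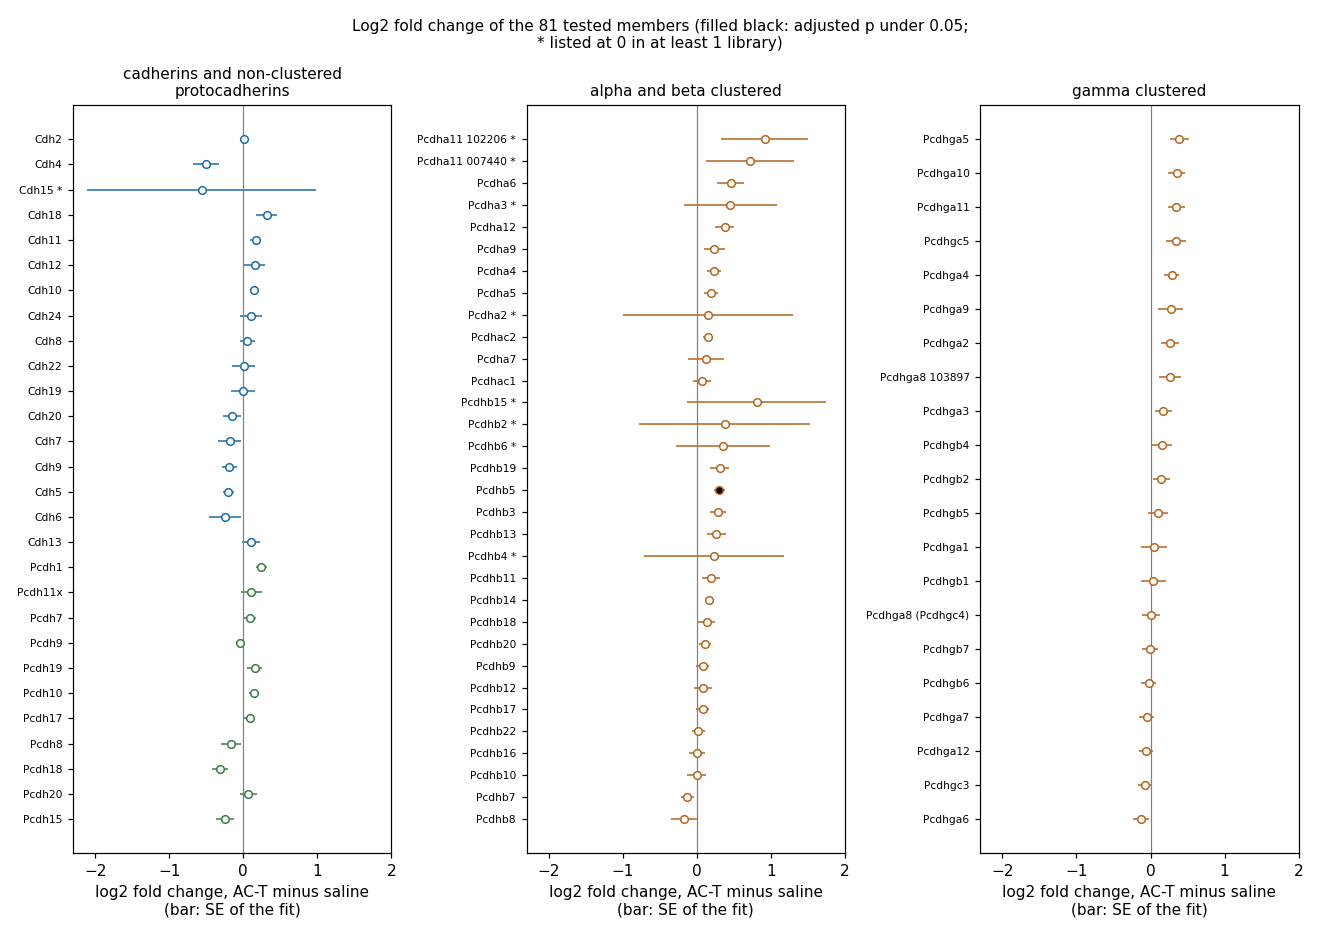
Log2 fold change, AC-T minus saline (horizontal axis), of the 81 tested members, with the SE of the fit as bar. Only Pcdhb5 (0.30) is filled as past the threshold, and most clustered genes lie right of 0, while the cadherins lie on both sides.

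Among type I cadherins, which link to actin through beta-catenin, Cdh2 (N-cadherin, the main classical cadherin of excitatory synapses) differed by less than the spread between libraries. It had 102, 115.6, 106.7, 95.7 and 105 CPM in AC-T libraries, against 98.2 to 112.4 CPM with a median of 102.4 in saline libraries, and the ranges overlapped. Its log2 fold change was 0.01 ± 0.05 (SE) and its 95% interval ran from -0.11 to 0.13. Cdh4 (R-cadherin, which guides axon outgrowth) had 9.15, 8.69, 9.78, 9.29 and 12.2 CPM in AC-T libraries, against 9.0 to 18.5 CPM with a median of 13.6 in saline libraries. The saline libraries of series 2 were the high ones (14.3, 18.5 and 18.0 CPM), and those of series 3 (9.0, 12.9 and 10.9 CPM) overlapped the AC-T libraries. Over all libraries its log2 fold change was -0.50 ± 0.18 (edgeR adjusted p = 0.104), and without saline 300 it fell by 0.61 on the log2 scale (edgeR adjusted p = 0.0431, 0.00894 to 0.97 over 27 alternatives). Cdh4 passed in 1 of the 11 fits without a single library and in 3 of 27 alternatives. Cdh15 (M-cadherin of muscle) was listed at 0 in 2 AC-T and 3 saline libraries, so no fold change is read from it. Cdh1 (E-cadherin of epithelia) was above 0 in saline 202 alone, with 134 counts, and Cdh3 (P-cadherin) in AC-T 600 with 93 counts and saline 300 with 78.

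Type II cadherins mark neuron classes and their connections. All 13 were tested and none passed in edgeR (4 at an unadjusted p under 0.05, or 30.8% against 24.9% of all genes, and 1 in DESeq2, against 18.5% of all genes), with log2 fold changes from -0.24 (Cdh6) to 0.32 (Cdh18). Cdh8, the highest of them per length and a cadherin of corticostriatal and hippocampal circuits, averaged 56.0 ± 5.53 CPM in AC-T libraries and 53.8 ± 7.79 CPM in saline libraries (SD, n = 5 and 6). Cdh11, a cadherin of mesenchyme that neurons also express, had 61.6, 67.9, 64.8, 60.8 and 57.5 CPM in AC-T libraries, against 48.6 to 62.0 CPM with a median of 56.0 in saline libraries. The ranges overlapped, series 2 again lay apart (48.6 to 54.7 CPM), and the log2 fold change was 0.17 ± 0.07 (edgeR adjusted p = 0.18). Cdh9, needed in mice for mossy fibre synapses on CA3 neurons, had a log2 fold change of -0.19 ± 0.10 (edgeR adjusted p = 0.271). Cdh10, found with Cdh6 at hippocampal synapses, had 0.15 ± 0.06 (edgeR adjusted p = 0.153).

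Cdh5 (VE-cadherin, which seals endothelial junctions) had 13.9, 15.1, 18.0, 15.3 and 14.2 CPM in AC-T libraries, against 15.8 to 18.7 CPM with a median of 18.0 in saline libraries. All AC-T libraries but 503 lay below every saline library. The log2 fold change was -0.20 ± 0.07 (edgeR adjusted p = 0.108), and without AC-T 503 it was -0.26 (edgeR adjusted p = 0.0297, 0.0297 to 0.928 over 27 alternatives). Cdh5 passed in 1 of the 11 fits without a single library and in 2 of 27 alternatives. The 8 endothelial markers summed to 234 to 299 CPM in AC-T libraries and 272 to 322 CPM in saline libraries. Their exact permutation p was 0.039, or 0.146 adjusted over 15 library measures. Of the 8, 1 was called, Pecam1, which fell, beside 8.47% of all genes called. At an unadjusted p under 0.05 there were 3 of the 8, against 24.9% of all genes, and DESeq2 called 3, against 18.5%. The median log2 fold change of the list was -0.19. The part of endothelial content in the Cdh5 values was not tested. Atypical cadherins lack the catenin-binding tail. Cdh13 (T-cadherin, held in the membrane by a lipid anchor) averaged 42.1 ± 6.77 CPM in AC-T libraries and 39.2 ± 5.22 CPM in saline libraries. Cdh23, which forms the tip link of hair cells with Pcdh15, was above 0 in 3 AC-T libraries (62 to 68 counts). It was listed at 0 in all saline libraries, so it met the mean-count minimum through AC-T libraries alone. A listed 0 is a value under a limit, and no difference is read from Cdh23.

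Cdh18, a neuronal type II cadherin, had 11.7, 11.3, 11.6, 12.2 and 13.6 CPM in AC-T libraries, against 7.45 to 13.7 CPM with a median of 9.1 in saline libraries. Here the high saline libraries were 202 and 203, both of series 2 (13.7 and 11.1 CPM), and the log2 fold change over all libraries was 0.32 ± 0.14 (edgeR adjusted p = 0.185). Without saline 202 it was 0.44 (edgeR adjusted p = 0.0386, 0.0155 to 0.928 over 27 alternatives). Cdh18 passed in 1 of the 11 fits without a single library and in 2 of 27 alternatives.

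Promoters are shown for the members with the highest fold change among type II cadherins, Cdh18, and the lowest among non-clustered protocadherins, Pcdh18. Both passed the threshold in at least 1 fit. The RefSeq windows cover 250 bases before to 50 after the start (build GRCm38.p6; Cdh18 chr15:23036213-23036512, plus strand; Pcdh18 chr3:49757267-49757566, minus strand), with the GC box GGGCGG, or CCGCCC on the other strand, in capitals.
Cdh18: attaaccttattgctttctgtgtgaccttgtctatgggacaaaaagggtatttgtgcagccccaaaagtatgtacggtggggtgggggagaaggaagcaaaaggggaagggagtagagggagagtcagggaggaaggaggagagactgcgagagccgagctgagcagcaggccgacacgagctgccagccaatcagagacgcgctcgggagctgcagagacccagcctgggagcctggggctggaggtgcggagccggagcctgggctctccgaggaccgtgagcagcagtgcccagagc
Pcdh18: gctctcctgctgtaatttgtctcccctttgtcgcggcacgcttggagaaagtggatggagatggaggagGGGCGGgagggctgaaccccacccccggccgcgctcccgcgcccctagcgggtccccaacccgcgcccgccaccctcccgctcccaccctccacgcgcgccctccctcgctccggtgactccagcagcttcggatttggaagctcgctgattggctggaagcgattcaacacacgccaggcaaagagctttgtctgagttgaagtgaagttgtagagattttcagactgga
The Cdh18 window held 12 CG pairs and no such box, and the Pcdh18 window held 23 CG pairs and 1 box. In all, 21 member genes outside the chromosome of the clustered arrays matched the table, with 24 promoters. The box was in 9 of the 24 (37.5%), against 35.7% of 32851 promoters, and the median CG count was 16 in member promoters and 7 in all. Cdh7 and Pcdh9 had more than 1 promoter each, all without the box, so these shares are per promoter and not per gene.

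The clustered protocadherins summed to 924 ± 32.9 CPM in AC-T libraries and 844 ± 33.0 CPM in saline libraries, with overlapping ranges. The alpha array was the 1 array whose sums did not overlap. It reached 132.1, 158.9, 138.7, 133.8 and 145.2 CPM in AC-T libraries, against 95.9 to 130.7 CPM in saline libraries. The lowest saline value was that of saline 300, where 7 clustered genes were listed at 0, and without it the saline sums ran from 119.6 to 130.7 CPM. The gap between the nearest libraries, AC-T 501 and saline 203, was small beside the spread within each group. Beta sums were 121.2 to 146.4 CPM in AC-T libraries and 110.8 to 131.9 CPM in saline libraries, and gamma sums were 611.9 to 663.8 CPM in AC-T libraries and 572.3 to 637.6 CPM in saline libraries. Cadherin sums were 450 ± 23.2 CPM in AC-T libraries and 445 ± 16.5 CPM in saline libraries, and non-clustered sums were 821 ± 44.5 CPM in AC-T libraries and 770 ± 41.3 CPM in saline libraries.

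**Figure D3:**
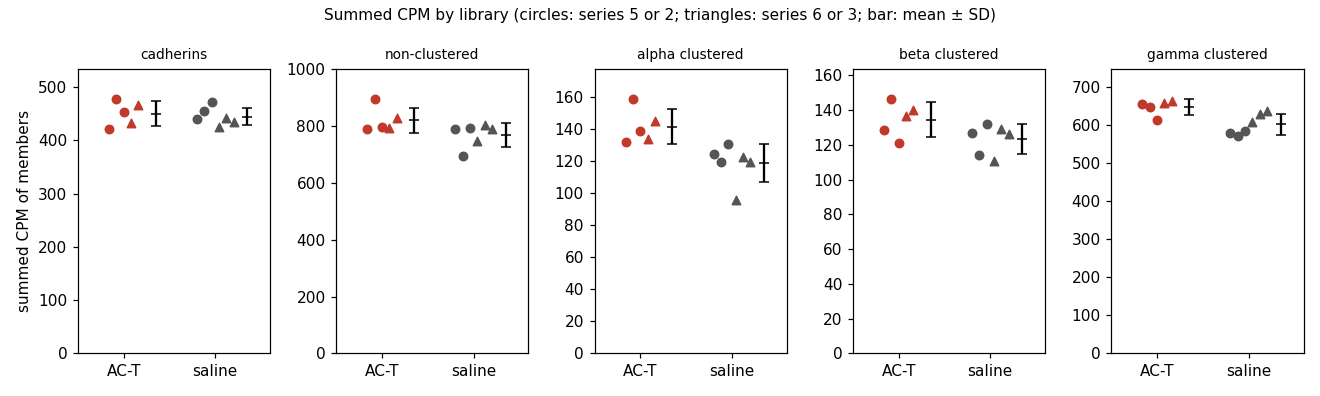
Summed CPM of the members of each class per library (vertical axis, from 0), AC-T left of saline, with circles for series 5 or 2, triangles for series 6 or 3, and bars for the mean ± SD. The alpha sums are 132.1 to 158.9 CPM in AC-T libraries and 95.9 to 130.7 CPM in saline libraries, and the other panels overlap.

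Pcdhb5, a beta isoform encoded by 1 exon, was the single member past the threshold. It had 5.43, 5.71, 4.82, 5.3 and 5.13 CPM in AC-T libraries, against 4.01 to 4.49 CPM with a median of 4.38 in saline libraries. Every AC-T library lay above every saline library, as for 3 of the 81 members (3.7%, against 7.52% of all genes, 4.42% among the higher). The other members were Pcdh1 and the Pcdha11 row ENSMUSG00000102206. The log2 fold change of Pcdhb5 was 0.30 ± 0.08, a 1.23-fold rise (edgeR adjusted p = 0.0338). With 137 counts per library on average it is among the lower members. The adjusted p ran from 0.0318 to 0.0878 as each library was left out, and the call remained in 3 of those 11 fits; it was lost without any one of AC-T 501, 502, 600 and 602 and saline 202, 203, 300 and 301. The fold change itself moved little, from 0.27 to 0.33 over 27 alternatives. Pcdhb9, the highest beta gene per length, averaged 18.3 ± 1.74 CPM in AC-T libraries and 17.3 ± 2.03 CPM in saline libraries.

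In the alpha array, Pcdha12 had 13.9, 18.5, 11.4, 16.5 and 14.7 CPM in AC-T libraries, against 9.51 to 13.6 CPM with a median of 11.7 in saline libraries. AC-T 503 lay within the saline range and the other AC-T libraries above it, and the log2 fold change was 0.38 ± 0.13 (edgeR adjusted p = 0.0962), or 0.46 without AC-T 503 (edgeR adjusted p = 0.0453, 0.0309 to 0.933 over 27 alternatives). Pcdha12 passed in 1 of the 11 fits without a single library and in 2 of 27 alternatives. Pcdhac2, the C-type alpha isoform that spaces serotonin axons in mice, had 52.1, 65.8, 57.4, 58.2 and 61.3 CPM in AC-T libraries, against 47.1 to 56.4 CPM with a median of 53.3 in saline libraries. The groups overlapped, with a log2 fold change of 0.15 ± 0.06 (edgeR adjusted p = 0.156). The Pcdha11 symbol stands on 2 rows. Row ENSMUSG00000102206 had 5.36 to 6.52 CPM in AC-T libraries, against 2.96 to 4.57 CPM in 5 saline libraries and a listed 0 in saline 300. Its SE was 0.59 for a log2 fold change of 0.92 (edgeR adjusted p = 0.372), and without saline 300 it was 0.65 (edgeR adjusted p = 0.0192, 0.0192 to 0.946 over the alternatives, with 2 of 26 past the threshold).

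In the gamma array, Pcdhgc5, a C-type isoform known to associate with GABA-A receptors, had 116.2, 128.5, 88.3, 130.2 and 116.4 CPM in AC-T libraries, against 71.2 to 112 CPM with a median of 86.7 in saline libraries. AC-T 503 lay among the saline libraries, and saline 301 and 302 (110.6 and 112.0 CPM) came close to the other AC-T libraries; the log2 fold change was 0.34 ± 0.13 (edgeR adjusted p = 0.131). Pcdhgc3, which promotes dendrite branching in mice, averaged 109.5 ± 6.9 CPM in AC-T libraries and 115.5 ± 16.0 CPM in saline libraries. The Pcdhga8 row that GENCODE names Pcdhgc4, the isoform on which interneuron survival depends in mice, had 145.3, 126.7, 162.3, 130.9 and 126.1 CPM in AC-T libraries, against 118.9 to 193.9 CPM with a median of 128 in saline libraries. One saline library, 201, was far above the others, and the log2 fold change was 0.00 ± 0.12, with a 95% interval from -0.27 to 0.27. The alternate isoform Pcdhga5 had 13.9, 20.6, 13.2, 16.3 and 15.1 CPM in AC-T libraries, against 9.77 to 14.4 CPM with a median of 12.4 in saline libraries. These ranges overlapped through saline 302, and the log2 fold change was 0.39 ± 0.13 (edgeR adjusted p = 0.0852). Pcdhga10 and Pcdhga11 each had 0.35 ± 0.12 (edgeR adjusted p = 0.0956 and 0.0929). Without AC-T 503 they had 0.43 and 0.44 (edgeR adjusted p = 0.0464 and 0.0295), and without saline 300 Pcdhga10 had 0.42 (edgeR adjusted p = 0.045). Over 27 alternatives the adjusted p ran from 0.032 to 0.946 for Pcdhga10 and from 0.0268 to 0.943 for Pcdhga11. Pcdhga10 passed in 4 of the 27 and Pcdhga11 in 2.

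Non-clustered protocadherins gave no edgeR call among 11. At an unadjusted p under 0.05 there were 3 (27.3%, against 24.9% of all genes), and DESeq2 called 2, against 18.5% of all genes. Pcdh1, a delta-1 member best known from airway epithelium and also expressed in brain, had 228.5, 252.4, 223, 230.1 and 228.7 CPM in AC-T libraries, against 163.4 to 222 CPM with a median of 200.7 in saline libraries. The groups did not overlap, by 1 CPM between AC-T 503 and saline 301, and the log2 fold change was 0.24 ± 0.08 (edgeR adjusted p = 0.0705). Pcdh10, a delta-2 member that takes part in synapse elimination, had 91.7, 97.0, 102.9, 88.4 and 93.2 CPM in AC-T libraries, against 73.7 to 91.9 CPM with a median of 86.5 in saline libraries. The groups overlapped, and the log2 fold change was 0.14 ± 0.06 (edgeR adjusted p = 0.164). Pcdh8 (arcadlin), induced by neuronal activity, averaged 39.5 ± 5.66 CPM in AC-T libraries and 44.4 ± 7.67 CPM in saline libraries. Pcdh17, which acts at presynaptic terminals, and Pcdh19, an X-linked gene whose human variants cause epilepsy, had log2 fold changes of 0.09 ± 0.08 and 0.15 ± 0.10.

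Pcdh18, a delta-2 member, had 4.27, 3.95, 5.02, 4.64 and 4.69 CPM in AC-T libraries, against 4.26 to 6.19 CPM with a median of 5.83 in saline libraries. Saline 302 lay among the AC-T libraries and the other saline libraries all lay above them. Its log2 fold change was -0.32 ± 0.11 (edgeR adjusted p = 0.0923), and without saline 302 it was -0.39 (edgeR adjusted p = 0.0231, 0.0231 to 0.969 over 27 alternatives). Pcdh18 passed in 1 of the 11 fits without a single library and in 2 of 27 alternatives. Pcdh20 had 79.2 to 115.7 CPM in AC-T libraries and 70.2 to 109.2 CPM in saline libraries. Pcdh15 had a log2 fold change of -0.25 ± 0.12 (edgeR adjusted p = 0.21).

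**Figure D4:**
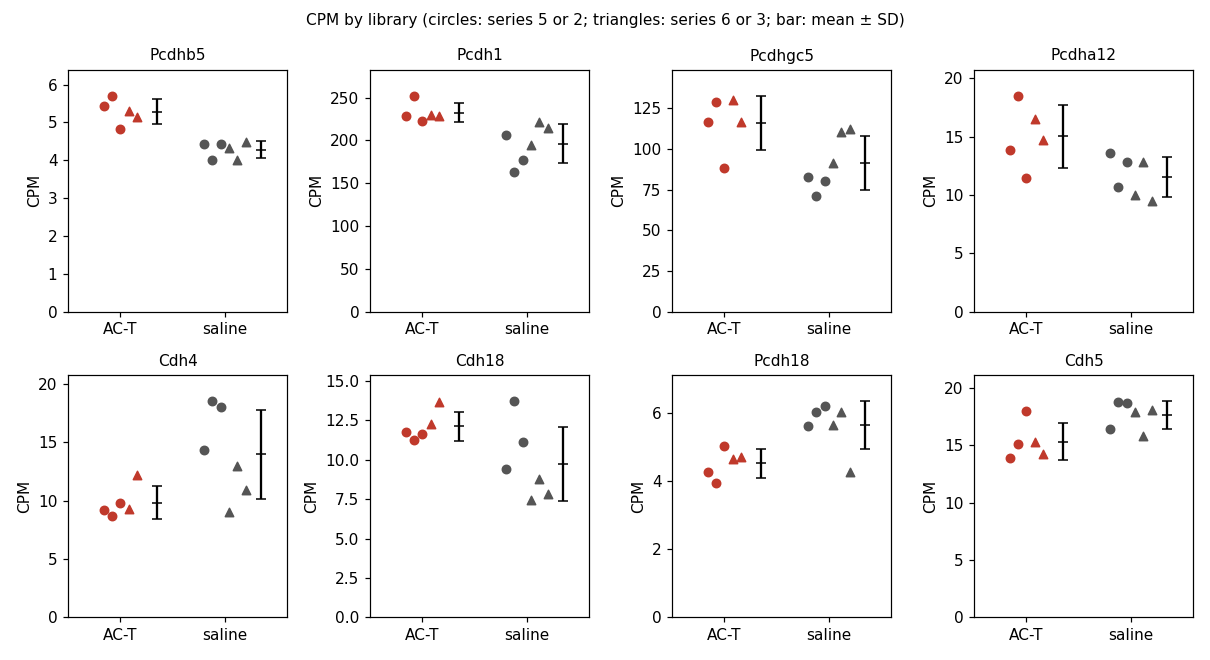
CPM of 8 members in every library (vertical axis, from 0), AC-T left of saline, with circles for series 5 or 2, triangles for series 6 or 3, and bars for the mean ± SD. Pcdhb5 and Pcdh1 do not overlap between the groups, and in Cdh4 and Pcdhgc5 the circles and triangles of saline stand apart.

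A second tool gave more calls. DESeq2 called 9 of 78 members (11.5%, against 18.5% of the genes it tested). Pcdh1, Pcdha12, Pcdhb5, Pcdhga5, Pcdhga10 and Pcdhga11 were higher (9.96% of all genes were), and Cdh4, Cdh5 and Pcdh18 were lower (8.56% of all genes). With the thalamic score (the mean log2 CPM of the thalamic list) in the edgeR fit, 0 of 81 members passed, as did 1 gene in the whole table (0.00651%). At an unadjusted p under 0.05 there were 2 of 81 members and 713 of all genes (4.64%). The score was 4.22 to 5.01 in AC-T libraries and 5.25 to 5.99 in saline libraries, so score and treatment cannot be told apart in these libraries. In that fit Pcdhb5 had a log2 fold change of 0.29 ± 0.18 (edgeR adjusted p = 0.928), Pcdha12 had 0.38 ± 0.31, Pcdh1 had 0.02 ± 0.16, Cdh4 had 0.13 ± 0.37 and Pcdhgc5 had -0.20 ± 0.23.

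Against each saline series in turn, with all AC-T libraries shared between the contrasts, different members passed. Against series 2, 7 of 81 members were called (8.64%, against 11.4% of all genes). Cdh4 was lower (log2 fold change -0.77 ± 0.13), and Cdh11, Pcdh1, Pcdhga2, Pcdhga10, Pcdhgc5 and the Pcdhga8 row ENSMUSG00000103897 were higher (0.28 to 0.58), beside 5.59% of all genes lower and 5.83% higher. Against series 3, 1 of 81 was called (1.23%, against 7.25% of all genes, 4.31% among the higher), Cdh18, at 0.61 ± 0.11. Against that series Cdh4 had -0.14 ± 0.14, Pcdh1 had 0.14 ± 0.08 and Pcdhgc5 had 0.16 ± 0.12. Between the saline series themselves, series 3 minus series 2, no member passed (0 of 81, against 1.03% of all genes), with the smallest edgeR adjusted p at 0.0768. At an unadjusted p under 0.05 there were 13 of 81 members, against 20.1% of all genes. The values there were -0.63 ± 0.15 for Cdh4, -0.51 ± 0.13 for Cdh18 and 0.42 ± 0.14 for Pcdhgc5. Between AC-T and saline over all libraries the same members had -0.50, 0.32 and 0.34. The median log2 fold change of all tested members was -0.05 between the saline series and 0.11 between AC-T and saline. Pcdhb5 was alike against both, at 0.29 ± 0.10 against series 2 and 0.30 ± 0.10 against series 3, with -0.01 ± 0.11 between the saline series. Between the AC-T series, 6 minus 5, 0 of 81 members passed, against 0.117% of all genes (5 at an unadjusted p under 0.05, against 13.5% of all genes). The median of the clustered protocadherins was 0.16 against series 2 and 0.17 against series 3.

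**Figure D5:**
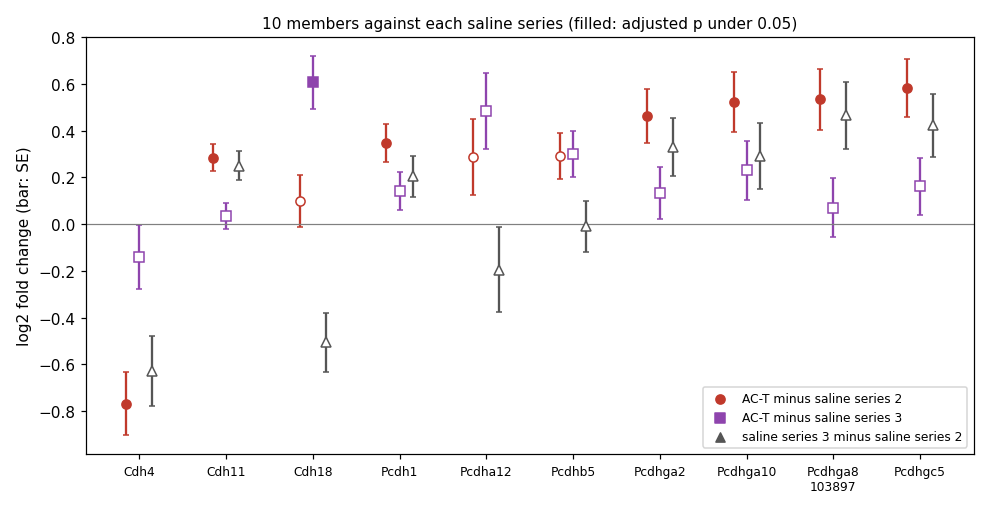
Log2 fold changes (vertical axis, bar the SE of the fit) of 10 members for AC-T minus saline series 2 (circles), AC-T minus saline series 3 (squares) and saline series 3 minus saline series 2 (triangles), filled where the adjusted p was under 0.05. Pcdhb5 is alike against both saline series, while Cdh4 and Cdh18 pass against 1 series only.

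Partners of the family were read from lists, beside 8.47% of all genes called. The list of catenins, which couple cadherins to actin, and related genes had 0 higher and 1 lower of 10 tested. The lower gene was Ctnnbip1, a beta-catenin inhibitor rather than a catenin, with a log2 fold change of -0.22 ± 0.06 (edgeR adjusted p = 0.0316). Delta-catenin, Ctnnd2, had 142 ± 10.2 CPM in AC-T libraries and 127 ± 4.62 CPM in saline libraries (edgeR adjusted p = 0.073). Among 14 tested genes of the wider cadherin superfamily, 1 rose and 1 fell. Clstn1 (calsyntenin, a synaptic organiser and cargo adaptor) rose, with 781 to 928 CPM in AC-T libraries and 653 to 786 CPM in saline libraries (log2 fold change 0.27 ± 0.07, edgeR adjusted p = 0.0297). Ret, a receptor tyrosine kinase with cadherin-like repeats, fell, with 6.09 to 9.42 CPM in AC-T libraries and 9.93 to 17.7 CPM in saline libraries (log2 fold change -0.80 ± 0.19, edgeR adjusted p = 0.0242), and the high saline libraries were those of series 2. None of the 7 tested genes for proteases that cleave cadherins passed in edgeR. At an unadjusted p under 0.05 there were 2, against 24.9% of all genes, and DESeq2 called 2, against 18.5% of all genes.

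Of 11 genes listed as protocadherin partners, those of the WAVE complex of actin nucleation and the focal adhesion kinases, 7 rose and none fell (8.47% of all genes were called, 4.89% as higher): Abi1, Abi2, Cyfip2, Nckap1, Ptk2, Ptk2b and Wasf1. The list had a median log2 fold change of 0.29, beside 0.00 for all genes. Cyfip2 (a WAVE subunit) had 787, 867, 793, 782 and 863 CPM in AC-T libraries, against 608 to 712 CPM in saline libraries, with no overlap (log2 fold change 0.29 ± 0.06, edgeR adjusted p = 0.0124). Abi2 (0.31 ± 0.06) and Ptk2 (focal adhesion kinase, 0.29 ± 0.06) did not overlap either. The summed CA1 and neocortex markers moved with this list, in the same direction, and their part was not tested. With the thalamic score in the fit Cyfip2 had a log2 fold change of 0.21 (edgeR adjusted p = 0.928). Of 11 tested regulators of clustered protocadherin promoter choice, 1 was called, a share near the 8.47% of all genes. It was Smchd1, a repressor of the clusters (32.8 to 37.8 CPM in AC-T libraries and 29.4 to 33.7 CPM in saline libraries; log2 fold change 0.18 ± 0.05, edgeR adjusted p = 0.0476). Ctcf, which loops the promoters to their enhancers, had a log2 fold change of 0.14 (edgeR adjusted p = 0.0785).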

How the data were processed

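RNA from hippocampal punches was sequenced as stranded polyadenylated libraries. Salmon 1.9.0, Dragen 4.3.6, FastQC 0.11.9 and build GRCm39 are named per the submitters' processing notes. The annotation is not given in the sources used here. The authors deposited expected counts per gene in 1 table, in which 13.7 to 14.7% of values per library have a fraction. They were rounded to whole numbers. A listed 0 entered the fits, means and sums as 0. In the text it is read as a value under a limit, not as absence of the RNA.

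Values are CPM with trimmed-mean (TMM) scaling. The 2-sided quasi-likelihood test of edgeR 4.0.16 (R 4.3.3) was run on genes kept by filterByExpr at a minimum count of 10, adjusted by Benjamini-Hochberg over all genes tested. For edgeR the SE is the size of the log2 fold change over the square root of the F statistic. Intervals of 95% use this SE and the total degrees of freedom, residual plus prior. Alternatives were DESeq2 1.42.0, limma-voom (limma 3.58.1), other scalings and filters, a thalamic score covariate, series as random effect, and omission of libraries and series. The scripts were tested on simulated data. Class medians under these alternatives were added after seeing the data.

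The members and lists were chosen with earlier results of these data known. Named by rule were members past the threshold, the highest by mean CPM and the smallest p of each subclass, and Cdh5. Other members named were chosen after their values were seen, as were those shown in figures. Transcript lengths and names came from GENCODE M21 (GRCm38), matched by gene ID, and 1 of 86 names differed. Promoters came from RefSeq. Of the 6 AC-T samples the study states, 5 are analysed here. Libraries carry separate mouse numbers, and p-values measure the spread between these mice.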

Additional observations from a re-analysis of the deposited data

Results flagged for a closer look

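Among 74 groups of 5 or 6 libraries, 7 held a library far from the others by Dixon's criterion, which chance flags in about 5% of groups. Pcdh1 was high in AC-T 502, at 252.4 CPM, with the next AC-T library at 230.1 CPM. Pcdhga2 was high in AC-T 602, at 23.7 CPM, with the next at 18.2 CPM. The Pcdhga8 row that GENCODE names Pcdhgc4 was high in saline 201, at 193.9 CPM, with the next at 135.2 CPM. Pcdh18 was low in saline 302, at 4.26 CPM, with the next at 5.62 CPM. Pcdh8 was low in AC-T 503, at 29.6 CPM, with the next at 40.8 CPM. The Pcdha11 row ENSMUSG00000102206 was listed at 0 in saline 300, with the next at 2.96 CPM. The alpha sum was low in saline 300, at 95.9 CPM, with the next at 119.6 CPM.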

How the results depend on the processing

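No paired analysis was possible because AC-T and saline share no mouse numbers. The count of all genes past the threshold (1301) was 2566 with DESeq2, 1 with the thalamic score, 293 with series as random effect, 549, 317 and 409 without series 2, 5 and 6, 228 at adjusted p under 0.01, 2295 at 0.1, and 625 to 1229 without single libraries. Clustered protocadherins (1) numbered 5 with DESeq2 and at 0.1, 3 without series 3, 0 with library totals, the thalamic score, the random effect, at 0.01 and without series 2, 5 or 6, and 0 to 4 without single libraries, the 4 without AC-T 503. Cadherins (0) numbered 2 with DESeq2 and without series 3, 1 without series 2, and 0 to 1 without single libraries. Non-clustered members (0) numbered 2 with DESeq2 and at 0.1, 1 without series 3, and 0 to 1 without single libraries; their median of 0.09 was 0.0034 without series 3 and 0.0011 without series 5.

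With the thalamic score, 22 of the 81 tested members turned sign, and among those described these were Cdh4 (0.13), Pcdh15 (0.31), Cdh11 (-0.15), Pcdh20 (-0.15), Pcdhac2 (-0.031), Pcdhb9 (-0.17), Pcdhga2 (-0.050), Pcdhga5 (-0.15), Pcdhga8 row ENSMUSG00000103897 (-0.37), Pcdhgc5 (-0.20), Cdh8 (-0.29) and Pcdh17 (-0.013). Without series 3 Cdh13 had -0.037, Pcdh8 0.0034 and Pcdhgc3 0.053, and without series 2 Cdh8 had -0.094. Cdh2 and the Pcdhgc4 row, both near 0, turned with RLE factors (-7.8e-06 and -0.0073), upper-quartile factors (-0.016 and -0.022), library totals (-0.011 and -0.022), without series 3 (-0.056 and -0.15) and without series 5 (-0.062 and -0.11). The Pcdhgc4 row also turned among genes above 0 throughout (-5.4e-04) and with DESeq2 (-0.0076). Without single libraries Cdh2 ran from -0.027 to 0.041, the Pcdhgc4 row from -0.063 to 0.12 and Cdh8 from -0.011 to 0.10. The cause was not tested. The summed levels of the 3 classes moved by less than 1 SD in all 14 settings each. Pcdhb5 passed in 12 of 27 alternatives.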
